A study of Mus musculus with 8 samples.

Results

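Transcript levels of 7 transcription factor genes of the WNT pathway were followed in mouse colon adenomas and in non-adenoma colon. The genes were picked by symbol from the deposited tables, with earlier results of these data known. They are the 4 TCF/LEF genes Lef1, Tcf7, Tcf7l1 and Tcf7l2, and 3 genes known to be induced by WNT, Sp5, Sox4 and Sox9, out of 31189 genes in the tables. All 7 passed the filter on low counts, as did 17218 genes in all. The series design sets each of 2 adenoma types with active canonical WNT signalling against non-adenoma tissue of its own model. In the first model, untreated ApcMin/+ mice on C57BL/6J, which have 1 mutant allele of the WNT antagonist Apc, were taken at an age of 110 to 120 days. In the second, wild-type C57BL/6J mice were injected once with a carcinogen, azoxymethane (AOM), at 10 mg/kg when 6 to 7 weeks old. They then drank 2% dextran sulfate sodium (DSS), an agent that damages the epithelium, in 3 cycles with water between them, and tissue was taken 70 days from the injection. The labels state that mutant, stable β-catenin was found by sequencing in adenomas of this second model and that their Apc was wild type. Each model gave 3 single adenomas and 1 section of neighbouring non-tumour colon, so 8 libraries in all. The section of each model carries the same genotype and treatment as its adenomas, and untreated wild-type colon was not analysed here. Nothing in the labels ties a section to a mouse or says that the adenomas came from separate mice, so p-values measure only the spread between these samples.

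TCF/LEF proteins bind DNA at WNT response elements but cannot switch genes on by themselves. Without a WNT signal they hold Groucho/TLE corepressors at their targets, and when β-catenin is stabilised it binds them and brings in coactivators such as BCL9, Pygopus and chromatin remodellers. The members are not equal: TCF7L1 works mostly as a repressor, LEF1 and TCF7 mostly as activators that are themselves WNT targets, and TCF7L2 is the member known for keeping the stem cells of the intestinal crypt alive. SP5 is a zinc finger factor induced by WNT in many tissues, SOX4 a factor of progenitor cells, and SOX9 a factor of crypt base cells that is needed to form Paneth cells.

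The start-site windows of these genes are shown because several of them are WNT targets, and a TCF/LEF protein recognises a short word. RefSeq windows (build GRCm38.p6, 250 bases before to 50 bases after a start) were at hand for 6 of the 7 genes, Sox9 having none in the table, and came to 11 windows. They were searched on both strands for CTTTGAT and for the same word with AA, TT or TA as its ending, 4 words that share their first letters and so are counted at separate positions. At least 1 of them occurs in 16.9% of 32851 mouse windows of this length, and CTTTGAT alone in 3.73%. In the 3 windows printed here, 5′ to 3′ on the strand of the gene, capitals mark a word.
Sp5, chr2:70474673-70474972, plus strand: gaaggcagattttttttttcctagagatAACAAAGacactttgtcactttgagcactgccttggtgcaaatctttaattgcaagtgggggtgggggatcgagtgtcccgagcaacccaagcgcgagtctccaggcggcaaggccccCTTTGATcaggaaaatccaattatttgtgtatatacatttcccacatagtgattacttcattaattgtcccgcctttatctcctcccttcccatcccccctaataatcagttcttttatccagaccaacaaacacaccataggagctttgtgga
Lef1, chr3:131156044-131156343, plus strand: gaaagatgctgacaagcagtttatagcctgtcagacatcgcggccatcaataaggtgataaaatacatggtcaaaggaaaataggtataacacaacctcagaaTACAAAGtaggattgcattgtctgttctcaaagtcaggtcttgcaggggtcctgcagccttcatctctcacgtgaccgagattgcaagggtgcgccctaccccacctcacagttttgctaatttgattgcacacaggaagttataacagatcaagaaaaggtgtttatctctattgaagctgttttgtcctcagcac
Tcf7l2, chr19:55895071-55895370, plus strand: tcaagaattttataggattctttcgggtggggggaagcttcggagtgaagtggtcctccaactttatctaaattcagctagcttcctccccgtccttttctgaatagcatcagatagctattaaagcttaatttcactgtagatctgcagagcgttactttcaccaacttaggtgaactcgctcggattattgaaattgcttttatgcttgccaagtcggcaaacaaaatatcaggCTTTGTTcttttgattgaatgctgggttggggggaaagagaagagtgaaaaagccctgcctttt
The single Sp5 window held 2 words, CTTTGAT on the plus strand at -104 from the start and CTTTGTT on the minus strand at -222. The Lef1 window is 1 of 4 for that gene and held CTTTGTA on the minus strand at -147. The Tcf7l2 window is 1 of 2 and held CTTTGTT on the plus strand at -14. The other windows, of Lef1, Tcf7, Tcf7l1, Tcf7l2 and Sox4, held none of the words. A match describes letters only and was not tied to any binding measurement here.

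Libraries held 18156741 to 22719895 counts, and a count of 0 allows up to 3 counts, which is 0.128 to 0.172 CPM (counts scaled by TMM library size). Marker genes of other cells moved with tissue. Smooth muscle markers fell in 10 of 10, and their summed level was 7165 and 9968 CPM in the sections, 755 to 2108 CPM in ApcMin/+ adenomas and 318 to 550 CPM in AOM/DSS adenomas. Goblet cell markers fell in 7 of 8 and colonocyte markers in 8 of 10, while Paneth cell markers rose in 7 of 8 and proliferation genes in 11 of 12 (edgeR, adjusted p under 0.05, adenoma effect shared by both models). In that effect 9 of 11 stem cell markers tested rose and 1 fell, and enteroendocrine markers fell in 10 of 10. The stem cell markers Axin2, Rnf43, Znrf3, Lgr5, Ascl2 and Tnfrsf19 and the Paneth marker Mmp7 are also among the WNT targets counted below. Of all genes tested, 18.3% were called higher and 15.8% lower in the shared effect. Markers of the epithelium as a whole summed to 11730 and 11780 CPM in the sections and to 6640 to 9363 CPM in the adenomas. Of these 10 markers, 5 were called lower in the shared effect, Krt8 (-0.90 ± 0.20) and Krt19 (-0.67 ± 0.20) among them, and 0 higher. Epcam (-0.13 ± 0.15) and Krt18 (0.52 ± 0.21), named after their values were seen, were not called. In 2 adenomas the marker sums stood apart. ApcMin/+ adenoma 3 held 8814 CPM of goblet cell markers, against 779 and 999 CPM in the other adenomas of its model, and AOM/DSS adenoma 2 held 404 CPM of B cell markers, against 39.5 and 46.9 CPM. In bulk tissue, fewer cells of a type and less RNA per cell cannot be told apart.

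Lef1 and Tcf7 rose steeply in the adenomas of both models. Lef1 encodes a TCF/LEF factor that activates genes with β-catenin. It measured 1.83 CPM in the ApcMin/+ section and 41.1, 34.6 and 29.2 CPM in ApcMin/+ adenomas 1, 2 and 3. In the AOM/DSS model it stood at 5.45 CPM in the section and at 38.0, 28.4 and 42.2 CPM in the adenomas. Every adenoma lay above both sections, and the adenomas of the 2 models covered overlapping ranges. The log2 fold change of Lef1 was 4.25 ± 0.39 (SE) in ApcMin/+ (edgeR, adjusted p = 0.00969) and 2.73 ± 0.34 in AOM/DSS (adjusted p = 0.0248).

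Tcf7, which encodes TCF1, the other WNT-induced TCF/LEF factor and a classical T cell factor, followed the same course. Its level was 5.56 CPM in the ApcMin/+ section and 86.0, 68.8 and 54.9 CPM in the adenomas. In AOM/DSS it was 9.81 CPM in the section and 56.6, 54.2 and 64.4 CPM in the adenomas. The groups of adenomas and sections did not overlap. The log2 fold change was 3.65 ± 0.33 (SE) in ApcMin/+ (edgeR, adjusted p = 0.00969) and 2.57 ± 0.30 in AOM/DSS (adjusted p = 0.0245).

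T cells also transcribe Lef1 and Tcf7, so T cell markers are given beside them. Of 12 markers, 1 rose in the shared effect, Zap70, and none fell, where 18.3% and 15.8% of all genes were called in those directions. Between adenoma types, 7 were higher in AOM/DSS than in ApcMin/+ adenomas, as were 10.2% of all genes. The summed level of the 12 markers was 39.4 and 38.2 CPM in the sections, 33.6 to 49.0 CPM in ApcMin/+ adenomas and 69.7 to 180 CPM in AOM/DSS adenomas. None was at 0 in any library. AOM/DSS adenoma 2 had the highest T cell sum and the lowest Lef1 and Tcf7 of its model. That adenoma was also the lowest of its model for Tcf7l2, Sp5, Sox4 and Sox9, and had the highest B cell sum (404 CPM). Zap70, a kinase of T cell receptor signalling, was at 1.03 CPM in the ApcMin/+ section and 13.7, 10.3 and 9.75 CPM in its adenomas, and was the 1 marker called in ApcMin/+ (3.44 ± 0.65, SE; edgeR, adjusted p = 0.0252). Of the others with the smallest p, Cd3g, Lck and Il7r had ApcMin/+ log2 fold changes of 0.50, 0.53 and -0.05 and were not called. Their AOM/DSS values were 1.94, 1.35 and 2.25, not called either. Zap70 was called in AOM/DSS as well (3.02 ± 0.62, SE; edgeR, adjusted p = 0.0483). The median of the 12 markers was -0.13 in ApcMin/+ and 1.44 in AOM/DSS. The part of T cells in the Lef1 and Tcf7 levels was not tested.

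Tcf7l1 and Tcf7l2 were lower in the adenomas. Tcf7l1, the member of the family that acts mostly as a repressor, measured 46.0 CPM in the ApcMin/+ section and 6.36, 5.41 and 20.8 CPM in the adenomas. In AOM/DSS it stood at 76.9 CPM in the section and at 11.6, 13.0 and 5.37 CPM in the adenomas. All 6 adenomas lay below both sections, and ApcMin/+ adenoma 3 was the highest of them. The effect shared by both models was a log2 fold change of -2.54 ± 0.51 (SE; edgeR, adjusted p = 0.0109). Within a model it did not pass the threshold, at -2.08 ± 0.74 in ApcMin/+ (adjusted p = 0.0906) and -2.94 ± 0.73 in AOM/DSS (adjusted p = 0.0623). Without ApcMin/+ adenoma 3 the ApcMin/+ value was -2.97 and passed (adjusted p = 0.0102).

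Smooth muscle and goblet cell marker sums, like Tcf7l1, were higher in both sections than in all 6 adenomas. Smooth muscle sums and Tcf7l1 were both highest in the AOM/DSS section (9968 and 76.9 CPM), then in the ApcMin/+ section (7165 and 46.0 CPM) and ApcMin/+ adenoma 3. Both were lowest in AOM/DSS adenoma 3 (317.6 and 5.37 CPM). Orders differed for goblet sums in the sections and for smooth muscle sums in the other adenomas. The goblet sum was 28480 CPM in the ApcMin/+ section and 17000 CPM in the AOM/DSS section, where Tcf7l1 was 46.0 and 76.9 CPM. Smooth muscle sums were 755.4 and 790.5 CPM in ApcMin/+ adenomas 1 and 2 and 550.4 and 503.1 CPM in AOM/DSS adenomas 1 and 2. Tcf7l1 was 6.36 and 5.41 CPM in the former and 11.6 and 13.0 CPM in the latter. ApcMin/+ adenoma 3, the adenoma richest in Tcf7l1, also had the highest smooth muscle sum of the 6 adenomas (2108 CPM). It had the highest goblet and colonocyte sums as well (8814 and 3285 CPM). Tns1 and Sspn, the genes whose pattern over the 8 libraries was most like that of Tcf7l1, had a root mean square (RMS) difference of 0.25 and 0.27 on the log2 scale. The part of these cells in the Tcf7l1 result was not tested.

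Tcf7l2 changed least among the TCF/LEF genes. It measured 57.2 CPM in the ApcMin/+ section and 39.1, 29.4 and 39.8 CPM in the adenomas. In AOM/DSS it stood at 93.7 CPM in the section and at 62.6, 54.1 and 60.4 CPM in the adenomas. Within each model all adenomas lay below their section, but AOM/DSS adenoma levels overlapped the ApcMin/+ section. The shared log2 fold change was -0.66 ± 0.13 (SE; edgeR, adjusted p = 0.0106), and the values in ApcMin/+ (-0.66 ± 0.20, adjusted p = 0.0628) and AOM/DSS (-0.67 ± 0.20, adjusted p = 0.0896) did not pass.

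**Figure D1:**
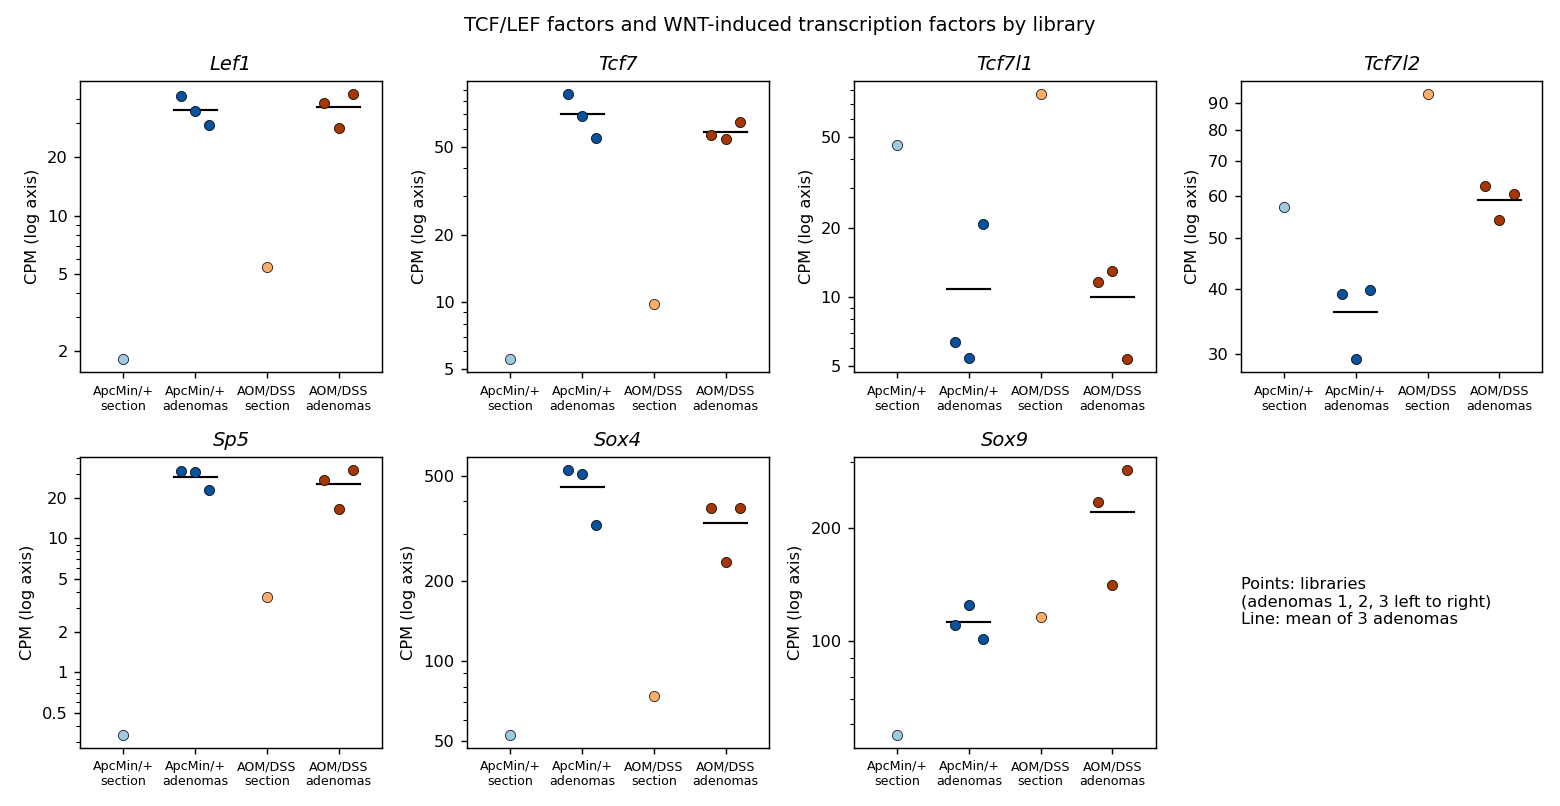
Level of each of the 7 genes in CPM (log axes, which do not start at 0) in the section and the 3 adenomas of each model, with 1 point per library and a line at the mean of 3 adenomas. Lef1, Tcf7, Sp5 and Sox4 lie higher in every adenoma than in either section, Tcf7l1 lies lower in every adenoma, and for Tcf7l2 and Sox9 adenomas of one model reach the section of the other.

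These opposite changes turned over the makeup of the TCF/LEF family. Levels between genes are compared here in FPKM with 1 subtracted, which divides by transcript length. Tcf7l1 made up 74.2% of the summed FPKM of the 4 genes in the ApcMin/+ section and 76.1% in the AOM/DSS section. Lef1 and Tcf7 together made up 7.56% and 8.87% there. In the adenomas Tcf7 was the leading gene in all 6 libraries. It held 62.9, 63.3 and 46.2% in ApcMin/+ adenomas 1, 2 and 3, and 47.2, 49.9 and 52.3% in the AOM/DSS adenomas. Lef1 and Tcf7 together came to 81.9 ± 12.9% (SD, n = 3) in ApcMin/+ and 76.7 ± 4.51% in AOM/DSS adenomas. Tcf7l1 held 3.36 and 3.61% in ApcMin/+ adenomas 1 and 2, but held 23.6% in adenoma 3. In AOM/DSS adenomas it held 11.5, 13.5 and 5.93%.

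The summed FPKM of the 4 genes was 41.5 in the ApcMin/+ section against 82.9, 62.6 and 68.1 in its adenomas, and 87.9 in the AOM/DSS section against 71.7, 62.3 and 74.99 in its adenomas. So each adenoma's sum was higher than that of the section in ApcMin/+ and lower in AOM/DSS. These shares are a description of 8 libraries and carry no test. They rest on the length the authors' tool gave each gene. For Tcf7l1 the length implied by the counts and FPKM was 2.46 and 2.43 kb in ApcMin/+ adenomas 1 and 2 and 1.10 to 1.55 kb elsewhere, a 2.24-fold range. The median range over 10467 genes was 1.15-fold and that of Tcf7 1.03-fold. For Lef1 the range was 1.77-fold, above that of 93.0% of genes, with 3.42 kb in the ApcMin/+ section, from 32 counts, and 1.94 to 2.20 kb elsewhere. With 1 length per gene, Tcf7l1 still led in both sections and Tcf7 in all 6 adenomas. The Tcf7l1 share of the ApcMin/+ and AOM/DSS sections was then lower, at 69.55 and 68.45% with the mean length. It was 62.31 and 61.38% with the longest.

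**Figure D2:**
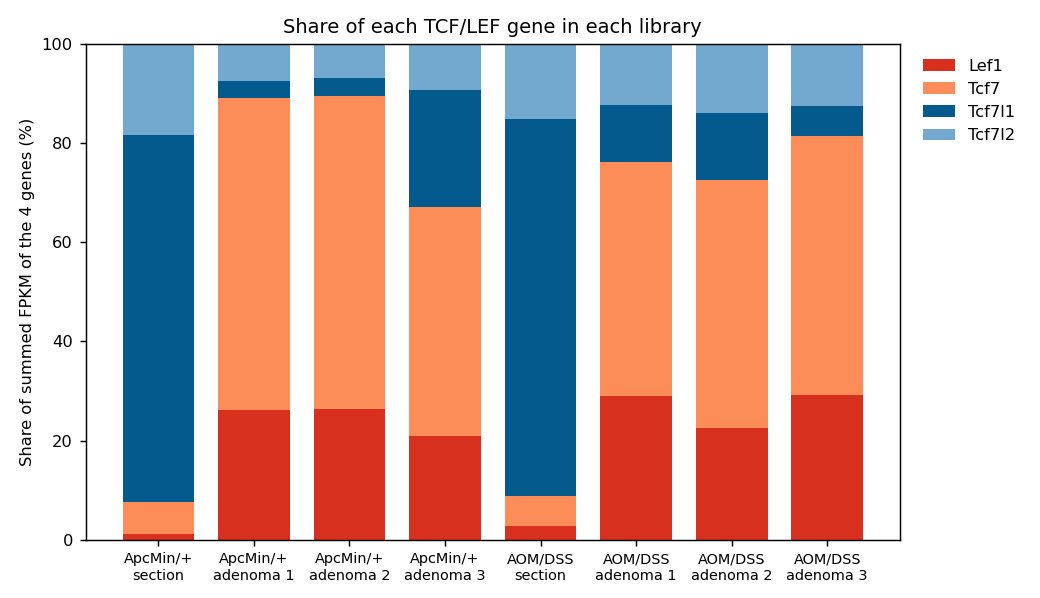
Share of each TCF/LEF gene in the summed FPKM (less 1) of Lef1, Tcf7, Tcf7l1 and Tcf7l2, in percent, 1 bar per library. Tcf7l1 holds over 74% of the sections, and Lef1 with Tcf7 hold 67.1 to 89.6% of the adenomas.

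Of the WNT-induced factors, Sp5 had the widest change in edgeR. It had 6 counts (0.344 CPM) in the ApcMin/+ section and 31.6, 31.2 and 23.0 CPM in its adenomas. In AOM/DSS it had 73 counts (3.65 CPM) in the section and 27.5, 16.5 and 32.4 CPM in the adenomas. The adenomas of the 2 models overlapped, while the AOM/DSS section stood 10.6-fold above the ApcMin/+ section (exact binomial 95% counting interval 4.65 to 29.9). The log2 fold change was 6.35 ± 0.63 (SE) in ApcMin/+ (edgeR, adjusted p = 0.00988) and 2.80 ± 0.47 in AOM/DSS (adjusted p = 0.0332). With 6 counts in the section, the ApcMin/+ ratio itself has a counting interval of 38.2 to 227 around 83.3-fold. With limma on log2(FPKM less 1 plus 1), which draws low values together, the ApcMin/+ value of Sp5 was 3.28 and that of Sox4 3.33, and in AOM/DSS they were 2.10 (adjusted p = 0.0556, no longer called) and 2.19.

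Sox4 was the most abundant of the 7 genes in 5 of 6 adenomas, in FPKM. It measured 52.7 CPM in the ApcMin/+ section and 525, 505 and 325 CPM in the adenomas. The AOM/DSS section held 73.6 CPM, against 376, 236 and 378 CPM in the adenomas. No adenoma overlapped a section. The log2 fold change was 3.10 ± 0.44 (SE) in ApcMin/+ (edgeR, adjusted p = 0.0146) and 2.17 ± 0.42 in AOM/DSS (adjusted p = 0.0426).

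Sox9 rose least. Its level was 56.4 CPM in the ApcMin/+ section and 110, 125 and 101 CPM in the adenomas. In AOM/DSS it was 116 CPM in the section and 235, 141 and 286 CPM in the adenomas. Each adenoma lay above its own section, but ApcMin/+ adenomas overlapped the AOM/DSS section. The shared log2 fold change was 0.96 ± 0.25 (SE; edgeR, adjusted p = 0.0247), and neither model alone passed (0.99 ± 0.38, adjusted p = 0.109 in ApcMin/+ and 0.92 ± 0.38, adjusted p = 0.160 in AOM/DSS). Paneth cell markers, whose cells need Sox9, summed to 78.4 CPM in the ApcMin/+ section against 1881 to 4272 CPM in its adenomas, and to 737 CPM in the AOM/DSS section against 3111 to 4196 CPM. Their part in the Sox9 level was not tested.

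Across the set, 5 of 7 genes were called higher and 2 lower in the shared effect, where 18.3% and 15.8% of all genes tested were called in those directions (34.1% in either). In ApcMin/+ alone 4 of 7 were called higher, against 10.1% of genes, and none lower, against 6.35% (16.4% in either). In AOM/DSS alone 4 of 7 were called higher, against 2.38%, and none lower, against 2.63% (5.01% in either). The genes called were Lef1, Tcf7, Sp5 and Sox4 in both models, whose shared log2 fold changes were 3.36 ± 0.40, 3.05 ± 0.31, 3.88 ± 0.77 and 2.59 ± 0.35 (SE; edgeR, adjusted p from 0.00459 to 0.0103). The 6 adenomas lay wholly above the 2 sections for those 4 genes, as for 20.1% of genes, and wholly below for Tcf7l1, as for 17.5%. With AOM/DSS adenoma 1, AOM/DSS adenoma 3 or ApcMin/+ adenoma 2 left out, none of the 4 passed in AOM/DSS, while their log2 fold changes were 2.06 to 2.80 (adjusted p from 0.0545 to 0.0957). Then 0, 18 and 14 genes in all were called, against 862. In a fit of the 4 AOM/DSS libraries alone, Sp5 (2.70, adjusted p = 0.0638) and Sox4 (2.07, adjusted p = 0.0581) were not called and Tcf7l1 was (-3.04, adjusted p = 0.0446). The shared calls of Tcf7l1, Tcf7l2 and Sox9 were lost when either section was left out (adjusted p from 0.0608 to 0.153), and those of the other genes were not.

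**Figure D3:**
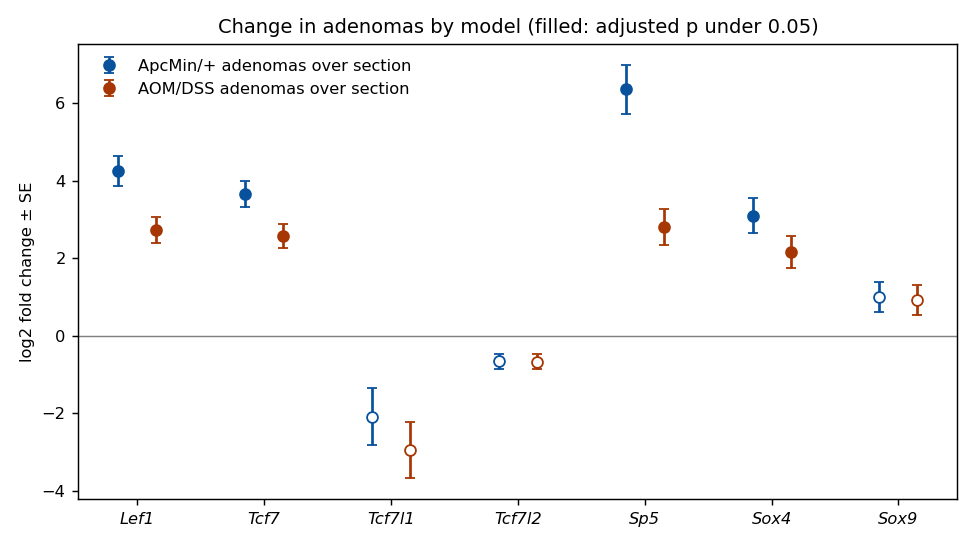
Log2 fold change of each gene over the section of its model, with SE bars (edgeR), for ApcMin/+ and AOM/DSS adenomas, where filled points passed an adjusted p of 0.05 and open points did not. Lef1, Tcf7, Sp5 and Sox4 are filled and above 0 in both models, Tcf7l1 and Tcf7l2 are open and below 0, and Sp5 has the widest distance between models (6.35 against 2.80).

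The sections of the 2 models also differed. The AOM/DSS section was above the ApcMin/+ section for all 7, from 1.40-fold for Sox4 (95% counting interval 1.28 to 1.52) to 2.06-fold for Sox9, 2.97-fold for Lef1 (1.99 to 4.56) and the 10.6-fold of Sp5. These intervals cover counting error only, and the difference between the sections was not tested. How many of all genes tested lay higher in the AOM/DSS section was not counted, so the count shows nothing particular to the 7. The AOM/DSS fold changes of Lef1, Tcf7 and Sp5 (2.73, 2.57 and 2.80) are set against this higher section. The difference of the adenoma effects between the models was not called for any of the 7 genes, nor for any of the genes tested (0%), in edgeR. At an unadjusted p under 0.05 it took in 1369 of 17218 genes (7.95%), among them Sp5 (-3.56 ± 0.70, adjusted p = 0.368), Lef1 (-1.52 ± 0.44, adjusted p = 0.532) and Tcf7 (-1.08 ± 0.38, adjusted p = 0.586). DESeq2 called 180 genes, Sp5 included (-3.59, adjusted p = 0.00535), and limma on FPKM called 3 to 369 genes and none of these 7.

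Set directly against each other, the adenomas of the 2 models differed in Tcf7l2 and Sox9. Tcf7l2 was higher in AOM/DSS adenomas by 0.71 ± 0.15 on the log2 scale (edgeR, adjusted p = 0.0235), and Sox9 by 0.97 ± 0.26 (adjusted p = 0.0426). For both genes all 3 AOM/DSS adenomas lay above all 3 ApcMin/+ adenomas, which held for 22.4% of genes, and 10.2% of genes were called higher (18.1% in either direction). None of the 7 was called lower, as 7.9% of genes were, and for none did all AOM/DSS adenomas lie below, as for 20.6% of genes. Both genes were also higher in the AOM/DSS section, by 1.64-fold and 2.06-fold. Sox9 lost its call in 9 and Tcf7l2 in 8 of 16 alternatives, limma on FPKM among them. The other 5 genes were not called. Their differences were 0.05 ± 0.20 for Lef1, -0.26 ± 0.18 for Tcf7, -0.12 ± 0.58 for Tcf7l1, -0.17 ± 0.27 for Sp5 and -0.45 ± 0.26 for Sox4.

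Adenomas of one model varied unequally from gene to gene. Tcf7l1 ranged 3.85-fold between the lowest and the highest ApcMin/+ adenoma and 2.42-fold among AOM/DSS adenomas, where genes of similar mean ranged 1.28-fold and 1.30-fold at the median. Sox9 ranged 2.03-fold among AOM/DSS adenomas (1.23-fold for similar genes) but only 1.24-fold among ApcMin/+ adenomas, the median of similar genes there. Sp5 ranged 1.97-fold and Sox4 1.60-fold in AOM/DSS. Tcf7l2 stayed tightest in AOM/DSS, at 1.16-fold. AOM/DSS adenoma 2 was the lowest of its model for every gene but Tcf7l1, where it was the highest. ApcMin/+ adenoma 3 was the lowest of its model for Lef1, Tcf7, Sp5, Sox4 and Sox9 and the highest for Tcf7l1 and Tcf7l2. These are the adenomas whose marker sums stood apart, and the part of other cells in their levels was not tested.

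**Figure D4:**
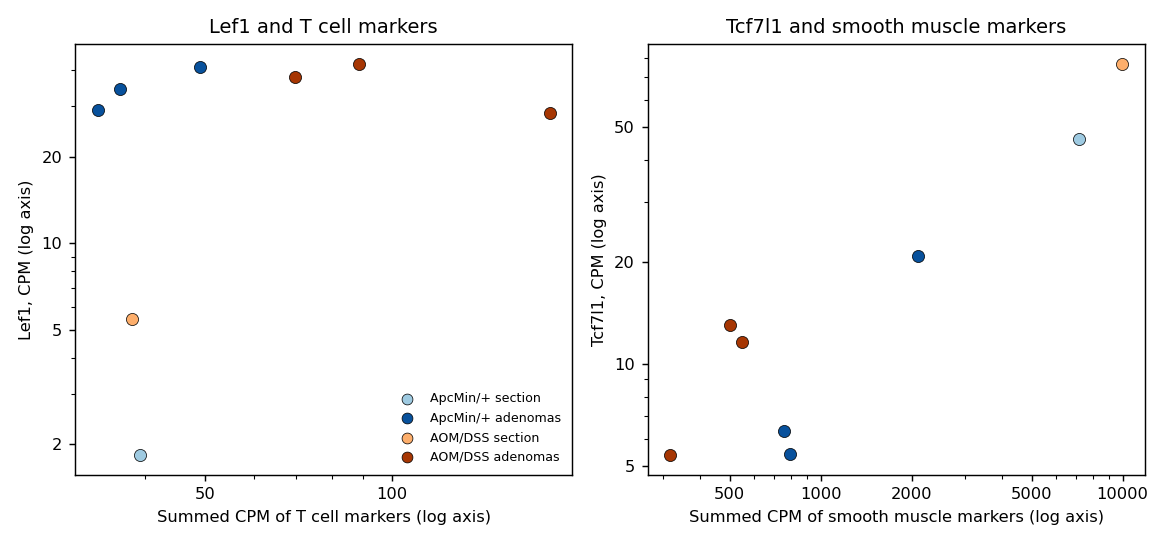
Lef1 level against the summed level of T cell markers, and Tcf7l1 level against that of smooth muscle markers (CPM, log axes), 1 point per library. Lef1 is 1.83 and 5.45 CPM in the sections, 29.2 to 41.1 CPM in ApcMin/+ adenomas and 28.4 to 42.2 CPM in AOM/DSS adenomas. T cell sums are 39.4 and 38.2 CPM in the sections, 33.6 to 49.0 CPM in ApcMin/+ adenomas and 69.7 to 180 CPM in AOM/DSS adenomas. Tcf7l1 is highest in the sections, where smooth muscle markers are highest. The part of these cells in the levels was not tested.

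Among the nuclear partners of TCF/LEF, shared changes lay between -0.96 and 1.31 on the log2 scale. Of 27 partner genes tested, 11 were called higher and 2 lower in the shared effect, against 18.3% and 15.8% of all genes. In ApcMin/+ 8 and 0 were called, against 10.1% and 6.35% of all genes, and in AOM/DSS 2 and 0, against 2.38% and 2.63%. The median log2 fold changes of the partners were 0.28, 0.47 and 0.21, against 0.07, 0.03 and 0.14 over all genes. The partners with the smallest p were Smarca4, the BRG1 remodeller subunit (1.00 ± 0.13, SE), Tnik, a kinase that phosphorylates TCF7L2 (1.16 ± 0.16), Tle3, a Groucho corepressor (1.31 ± 0.19), and Nlk, a kinase that weakens TCF/LEF binding to DNA (1.22 ± 0.20), all higher with edgeR adjusted p of 0.00523 to 0.00689. The genes called lower were the corepressor Tle4 (-0.96 ± 0.22) and the short Groucho protein Aes (-0.55 ± 0.11). They were picked out after their values were seen, as was Ctnnb1, which encodes β-catenin. Ctnnb1 measured 941 CPM in the ApcMin/+ section and 1908, 2055 and 1650 CPM in its adenomas. The AOM/DSS section held 764 CPM, against 1088, 1101 and 1433 CPM in its adenomas. The log2 change of Ctnnb1 shared by both models was 0.82 ± 0.17 (SE).

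**Figure D5:**
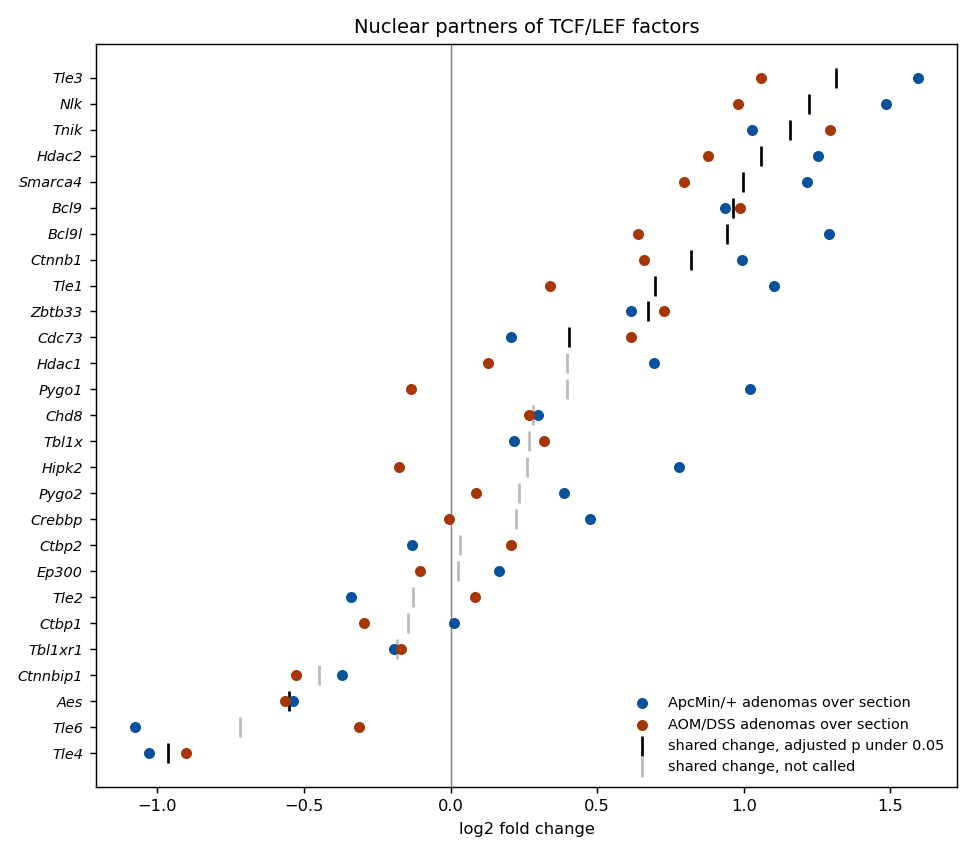
Log2 fold change (edgeR) of the 27 nuclear partners of TCF/LEF, as points for ApcMin/+ and AOM/DSS adenomas over their own section and as ticks for the change shared by both models, black where called and grey where not. The shared changes run from -0.96 for Tle4 to 1.31 for Tle3.

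Of 22 WNT target genes outside the 7, 18 were called higher in the shared effect, 17 in ApcMin/+ and 12 in AOM/DSS, and none lower, with medians of 2.98, 2.87 and 2.56. Over all genes tested, 18.3, 10.1 and 2.38% were called higher and 15.8, 6.35 and 2.63% lower. The targets not called in the shared effect, named after their values were seen, were Ephb2 (0.37), Ephb3 (0.45), Tdgf1 (0.63) and Sfrp5 (-1.28). Those with the smallest p were Rnf43, a ligase that removes WNT receptors (2.80 ± 0.26), Dkk2, a secreted WNT modulator (4.31 ± 0.46), Myc, a transcription factor of cell growth (1.09 ± 0.12), and Axin2, a negative feedback gene (3.21 ± 0.37). Of 11 other transcription factors tied to WNT in gut that were tested, 6 were called higher and 3 lower in the shared effect. The shares of all genes were 18.3% and 15.8%. Of the 6, Myc, Ascl2 and Prox1 are also among the WNT targets just counted. Myc, Id2 (1.49 ± 0.19), Ascl2, a crypt stem cell factor (2.26 ± 0.33), and Tbx3 (3.70 ± 0.55) had the smallest p. The 3 lower genes, named after their values were seen, were the differentiation factors Cdx1, Cdx2 and Hnf4a. Cdx2, a factor of intestinal identity, stood at 62.5 and 56.1 CPM in the sections and at 0.665 to 17.7 CPM in the adenomas.

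In the SOX family outside Sox4 and Sox9, 12 of 17 genes were tested, 3 were called higher and 1 lower in the shared effect, against 18.3% and 15.8% of all genes. Sox21 (3.18 ± 0.50), Sox17, an endodermal and endothelial factor (3.34 ± 0.65), and Sox5 (0.99 ± 0.31) were higher, and Sox10, a factor of enteric glia, was lower, with adjusted p of 0.00655 to 0.0407 in edgeR. Sox10 was at 2.58 and 1.05 CPM in the sections, at 0.0454, 0.0443 and 0.733 CPM in ApcMin/+ adenomas and at 0 in the AOM/DSS adenomas. Of 9 markers of enteric glia and neurons, Sox10 among them, 7 fell. Between the models, 4 of the 12 SOX genes were called lower in AOM/DSS adenomas, as were 7.9% of all genes. Sox11, picked out after its values were seen, stood at 19.8, 20.3 and 14.0 CPM in ApcMin/+ adenomas and at 0.257, 0.427 and 1.49 CPM in AOM/DSS adenomas. In the SP and KLF family, 20 of 25 genes were tested, 2 were called higher (Sp6, 3.24 ± 0.63, and Sp4, 1.27 ± 0.27), and 2 lower (Klf4, a differentiation factor of goblet cells and colonocytes, -2.68 ± 0.52, and Klf9, -0.94 ± 0.21), no more than the 18.3% and 15.8% of all genes, so the counts show nothing about the family. Sp6 stood at 0.287 and 0.751 CPM in the sections and at 3.03 to 10.0 CPM in the adenomas.

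For each gene, the genes most like it over the 8 libraries were found by the RMS difference of centred log2 CPM among 12181 genes, as a description without a test, since all of them share libraries and most the contrast of adenoma and section. Nearest to Lef1 were Axin2 (0.13), Sox21 (0.17) and the transporter gene Abcc2 (0.19). Axin2 measured 21.4 CPM in the ApcMin/+ section and 380, 286 and 239 CPM in its adenomas. The AOM/DSS section held 52.1 CPM, against 347, 258 and 420 CPM in its adenomas. Of the sections, that of AOM/DSS was the higher for Axin2 as for Lef1. Nearest to Tcf7 were Prss12 (0.20), Tead2 (0.22) and Rnf43 (0.23), and Lef1 itself ranked 14 (0.28). Nearest to Sp5 were Prr18 (0.16), Dnah17 (0.31) and Cited1 (0.35). Nearest to Sox4 were Fgfrl1 (0.14), Adamts7 (0.18) and Ajuba (0.20). Nearest to Sox9 were Hr (0.093), Nr6a1 (0.16) and Rtkn (0.21). Nearest to Tcf7l2 were Caskin2 (0.11), Adamtsl4 (0.12) and Iqsec2 (0.12), and Dbp (0.30) came next after Tns1 and Sspn for Tcf7l1.

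The added 1 in the deposited values matters for the lowest of these genes. In the authors' deposited table of ratios, Sp5 was 11.4, 10.5 and 7.77 times its section in ApcMin/+ adenomas 1, 2 and 3. After 1 was subtracted from the deposited FPKM, the ratios were 126, 115 and 82.7. Lef1 went from 15.6, 12.03 and 10.5 in the authors' deposited table to 48.3, 36.6 and 31.6. For Sox9, which is well expressed in the section, 2.57, 2.72 and 2.18 in the authors' deposited table became 2.70, 2.87 and 2.28.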

How the data were processed

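Colon adenomas (n = 3 per model) and 1 non-adenoma section per model were sequenced from 8 single-read TruSeq libraries, per the labels' protocols. The authors deposited estimated counts, FPKM values and ratios of FPKM per gene, per the file headers, on build mm9, per the submitters' processing notes. The aligner, counting tool, annotation and use of strand were among the items not given in the sources used here. Reads of genes that overlap, or of an antisense partner, therefore cannot be assigned with certainty. The lowest deposited estimated count and FPKM were 1, so 1 was subtracted and counts were rounded. Each lone section was assumed to vary like the adenomas.

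edgeR 4.0.16 (R 4.3.3) gave quasi-likelihood tests after TMM scaling and its expression filter (minimum count 10, minimum total 15), with Benjamini-Hochberg adjustment over 17218 genes and calls at 0.05. SE is the absolute log2 fold change over the square root of F. Group means used 4 residual degrees of freedom, and the shared effect, with terms for model and tissue, 5. Alternatives used other scalings, DESeq2 1.42.0, limma 3.58.1 on log2(FPKM less 1 plus 0.1 or 1), other filters and left-out libraries. Named genes were the 7 genes, the 3 most like each, and up to 4 per list with the smallest shared p, beside genes marked as named after their values were seen. The genes and lists were chosen with earlier results of these data known.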

Additional observations from a re-analysis of the deposited data

How the results depend on the processing

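Lef1, Tcf7, Sp5 and Sox4 kept their shared and ApcMin/+ calls in all 16 and 15 alternatives run. In AOM/DSS, Sp5 lost its call in 7 of 15 alternatives, Sox4 in 6, and Lef1 and Tcf7 in 3 each. Tcf7l2 lost its shared call on FPKM in limma (adjusted p 0.0752 to 0.111). limma on FPKM differs from the edgeR fit in unit, scaling, filter and test at once. With a pseudocount of 0.1, of 1 and without a filter, its median over all genes in the shared effect was 0.29, 0.25 and 0.20 (log2; edgeR 0.07). The higher share of its calls was 73.7, 71.6 and 70.1% in the shared effect (edgeR 53.6%), 86.4, 80.4 and 77.9% in ApcMin/+ (edgeR 61.3%) and 69.8, 57.3 and 44.5% in AOM/DSS (edgeR 47.4%). Within edgeR, RLE scaling gave 47.1, 53.4 and 37.6%.

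DESeq2 called 4406 genes and 7 of the 7 followed in ApcMin/+ (edgeR 2824 and 4), 2895 genes in AOM/DSS (edgeR 862) and 180 genes and 1 of the 7 for the difference of the effects (edgeR 0 and 0). For that difference limma called 4, 3 and 369 genes, with a pseudocount of 0.1, of 1 and without a filter. The 4 ApcMin/+ libraries alone gave 951 calls, 78.5% of them higher, and the 4 AOM/DSS libraries alone 796, 18.7% of them higher. Without a filter limma called 2 of the 7 in AOM/DSS and 1972 genes between the adenoma types (edgeR 3122). All 3 limma settings called 0 of the 7 there (edgeR 2).

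Leaving out 1 library gave 880 to 5912 genes and 4 to 7 of the 7 for the shared effect, 880 of them without the ApcMin/+ section and 2833 without the AOM/DSS section. The ranges were 354 to 4419 genes in ApcMin/+, 0 to 2055 genes and 0 to 5 of the 7 in AOM/DSS, and 779 to 2157 genes and 0 to 2 of the 7 between adenoma types. The highest counts came without ApcMin/+ adenoma 3 in ApcMin/+ and AOM/DSS. Adenoma numbers are shared by the models but mark no shared mouse, and same-numbered adenomas did not deviate together (r = -0.109, -0.322 and -0.278). With the number as a replicate block 541 genes and 0 of the 7 were called.

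The uncalled difference of Tcf7l1 between adenoma types turned to 0.52 and 0.39 on FPKM (pseudocount 0.1, also without a filter at 0.52, and 1), to 0.12 with the block, and ranged from -0.42 to 0.76 with 1 library left out. Lef1 (-0.073 to 0.20) and Sp5 (-0.38 to 0.068) also crossed 0 there, as did Tcf7l2 (-0.13 to 0.073), Sox9 (-0.30 to 0.17) and Tcf7l1 (-1.18 to 0.025) in the difference of the effects. The share of Lef1 and Tcf7 in the ApcMin/+ section was 11.3% in FPKM as deposited, 9.71% with 1 mean length per gene and 12.2% with the longest. In the AOM/DSS section it was 10.7, 11.5 and 14.0%. Both length settings were added after the data were seen. The causes of these shifts were not tested. Depth limits Sp5 and Lef1 in the ApcMin/+ section, with 6 and 32 counts.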
